A study of Mus musculus with 8 samples.

Results

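The subunits of respiratory complexes II to V were followed in the retinas of adult C57BL/6J mice kept in 75% oxygen. The genes were taken by symbol, as Sdha, Sdhb, Sdhc, Sdhd, Cyc1 and every symbol that starts with Uqcr, Cox4, Cox5, Cox6, Cox7, Cox8 or Atp5, which gave 47 genes of 18193 measured and 92 probe sets. A probe set is a group of short probes to 1 transcript, and only probe sets with a single gene symbol were used. The rule uses symbols and no measured value, but it was set with earlier results of these data known. By complex, 4 genes were of complex II, 9 of complex III, 17 of complex IV and 17 of complex V, and every symbol found by its spelling was a subunit, an isoform of a subunit or, for Cox7a2l, a subunit relative that is known to join complexes III and IV. RNA of pooled retinas from male and female mice, given an age of 80 to 120 days by the labels, was hybridised to 8 Affymetrix mouse GeneChips, 2 each for the control (day 0) and for 3, 7 and 14 days of hyperoxia. All mice, control mice included, were raised in dim cyclic light and were of the same strain, with no transgene. The sources used here do not say whether the 2 arrays of a day came from separate pools of animals, so the p-values measure the spread between arrays, which may be technical. The deposited values are on the log2 scale and each probe set is centred on its median over the 8 arrays, so that they give differences between arrays and no level. The presence of the retina's own markers, and which isoform was the most abundant, could therefore not be read from them.

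Complex II oxidises succinate and passes its electrons to coenzyme Q. Complex III takes them on to cytochrome c, complex IV (cytochrome c oxidase) passes them to oxygen, and complex V (ATP synthase) makes ATP from the proton gradient that complexes III and IV help to build. In the retina, mitochondria crowd the inner segments of rods and cones, which are among the cells with the highest oxygen use in the body. Cytochrome b of complex III, the catalytic core of complex IV and part of the membrane sector of complex V are encoded in mitochondrial DNA. These 13 mitochondrially encoded subunits, with those of complex I, are not analysed here (0 of 13 had a probe set with a single symbol), so that the genes below are all nuclear.

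None of the 47 genes passed the test at any time. A gene's value is the mean over its probe sets, and a difference is given on the log2 scale between the means of 2 arrays and 2 arrays, with its standard error (SE) from limma and a p adjusted over all genes by the Benjamini-Hochberg method. At an adjusted p under 0.05, 0 members passed at day 3, day 7 or day 14 against control, and 0 passed in the 3 comparisons between exposure days. The background was the same, with 0% of the 18193 genes called in each of the 6 comparisons and 0% by the F test for any difference among the 4 days. The lowest adjusted p of a member was 0.427 at day 3, 0.9998 at day 7 and 0.617 at day 14 against control. In the F test, the lowest was 0.541, and 12 of the 47 members had an unadjusted p under 0.05, with 8.99% of all genes doing so. The values below are thus descriptions of 8 arrays, with unadjusted counts set beside the same share of all genes.

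The median subunit gene was higher than control at days 3 and 14 and lower at day 7, though not every gene shared this order. The median over the 47 members was -0.04 and -0.10 on the 2 control arrays, 0.16 and 0.11 at day 3, -0.11 and -0.20 at day 7, then 0.06 and 0.20 at day 14. Both arrays of day 3 and both of day 14 thus lay above both control arrays, and both arrays of day 7 lay below them. At day 7 the gap was narrow, with -0.115 on day 7 replicate 1 and -0.101 on control replicate 2. Over all genes, the array medians stayed between -0.03 and 0.06. The array labelled day 3 replicate 1 held the highest value of 21 members (44.7%, against 20.3% of all genes), and the array labelled day 7 replicate 2 held the lowest value of 30 members (63.8%, against 20.7%). With these 2 arrays left out, 38 of the 47 members were higher at day 3 than in control (median 0.18), beside 61.2% of all genes (median 0.07). The median at day 7 against day 3 was then -0.24 (-0.08 over all genes).

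**Figure D1:**
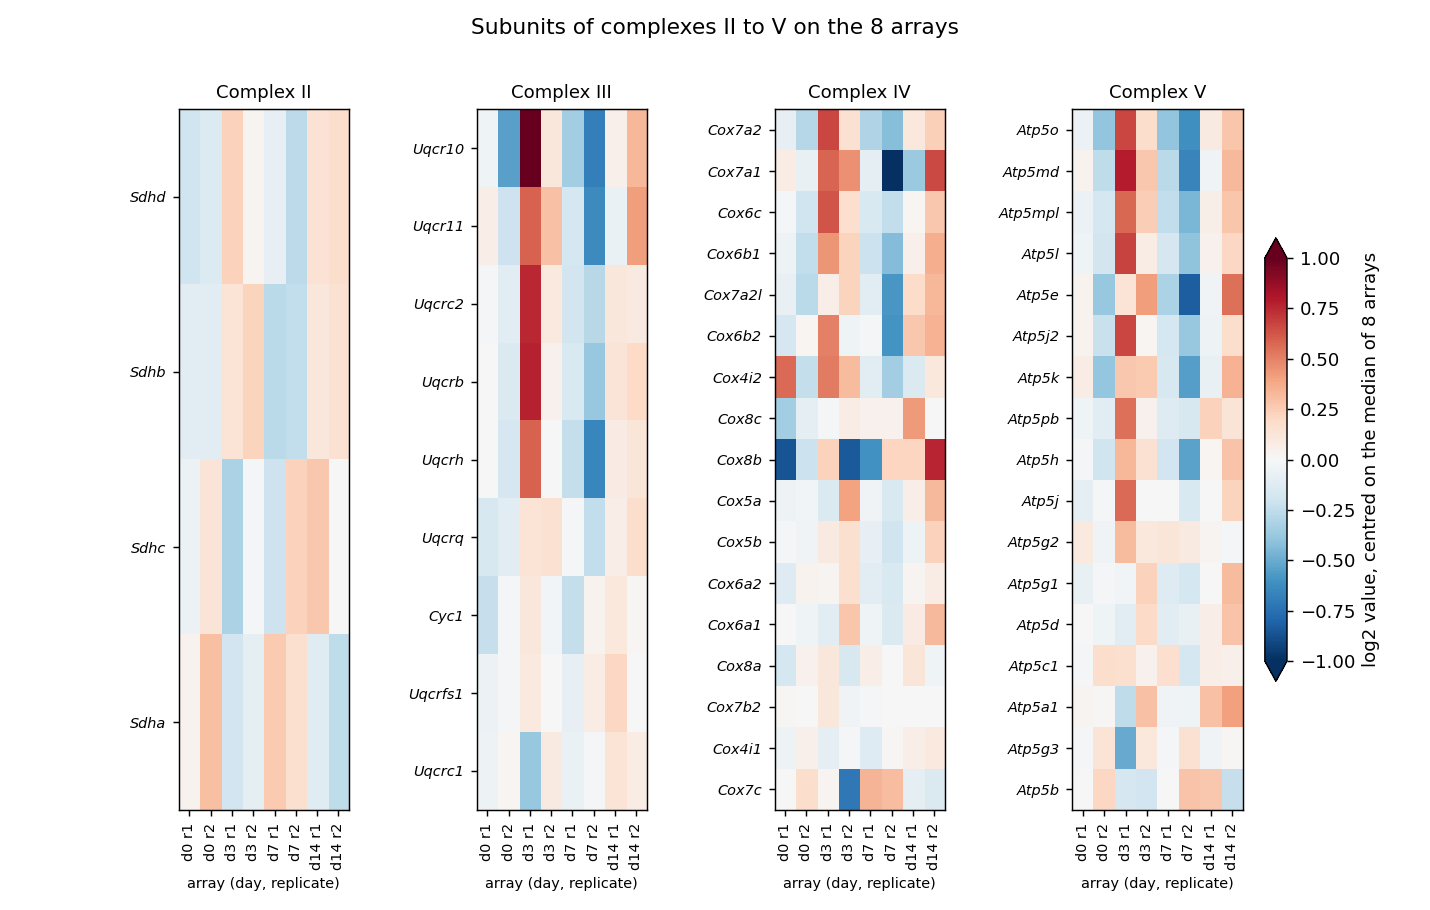
Centred log2 value of each of the 47 subunit genes (rows, by complex) on the 8 arrays (columns, by day and replicate), red above and blue below the gene's median. Many rows of complexes III, IV and V, but not all, are red on the 2 arrays of day 3 and blue on the 2 of day 7. The deepest colours are on day 3 replicate 1 and day 7 replicate 2. Sdha and Atp5b are blue on both day 3 arrays, and Cox7c is blue on day 3 replicate 2 but not on replicate 1.

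At 3 days of hyperoxia, 40 of the 47 genes were higher than in control and 7 were lower, with a median difference of 0.28 (0.06 over all genes, of which 59.2% were higher). With an unadjusted p under 0.05, 8 members were higher and 0 lower, beside 6.38% of all genes higher and 4.61% lower. Both arrays of day 3 lay above both control arrays for 25 members and below both for 2, beside 28.2% and 16.1% of all genes. The median differed by complex and was 0.04 in complex II, 0.38 in complex III, 0.23 in complex IV and 0.35 in complex V.

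In complex III, the small subunit gene Uqcr10 had the largest difference of any member at day 3 against control. It read -0.04 and -0.54 on the control arrays, 0.99 and 0.12 at day 3, -0.35 and -0.68 at day 7, then 0.05 and 0.33 at day 14. Both day 3 arrays were above both controls, but replicate 1 stood far above replicate 2. The difference at day 3 was 0.85 with an SE of 0.31 (limma adjusted p = 0.428). Uqcr11, another small subunit, read 0.07 and -0.20 in control, 0.59 and 0.29 at day 3, -0.17 and -0.64 at day 7, then -0.07 and 0.42 at day 14, a difference of 0.51 (SE 0.23) at day 3. Uqcrc2, one of the 2 large core proteins on the matrix side, read -0.02 and -0.11 in control, 0.75 and 0.09 at day 3, -0.18 and -0.28 at day 7, then 0.12 and 0.09 at day 14. Its difference at day 3 was 0.49 (SE 0.21). The other core protein gene, Uqcrc1, did not share this course and differed by -0.13 (SE 0.17). Among the subunits that carry electrons, Cyc1 (cytochrome c1) differed by 0.16 (SE 0.15) and Uqcrfs1 (the Rieske iron-sulfur protein) by 0.08 (SE 0.13), no more than about their SE.

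In complex IV, the largest differences at day 3 were those of Cox7a2 (the common isoform of subunit 7a), Cox7a1 and Cox6c. Cox7a2 read -0.08 and -0.28 in control, 0.67 and 0.15 at day 3, -0.30 and -0.43 at day 7, then 0.11 and 0.24 at day 14. Its arrays did not overlap with control at any exposure day, and lay above it at days 3 and 14 and below it at day 7. The difference at day 3 was 0.59 with an SE of 0.19 (limma adjusted p = 0.427). Cox6c read -0.02 and -0.20 in control, 0.63 and 0.17 at day 3, -0.15 and -0.25 at day 7, then 0.02 and 0.27 at day 14, a difference of 0.51 (SE 0.19) at day 3. Against these stood Cox7c, a small subunit, at -0.43 (SE 0.23), with -0.01 and 0.18 in control, 0.03 and -0.72 at day 3, 0.34 and 0.31 at day 7, then -0.09 and -0.14 at day 14. Its low mean at day 3 came from replicate 2, and replicate 1 lay within the control values. Cox4i1, Cox5a and Cox5b, subunits present in every tissue, differed by -0.05 (SE 0.12), 0.17 (SE 0.20) and 0.15 (SE 0.14).

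In complex V, Atp5o, Atp5md and Atp5mpl led. Atp5o encodes OSCP, which ties the stalk that holds the enzyme's head still to that head, and read -0.06 and -0.39 in control, 0.67 and 0.17 at day 3, -0.39 and -0.61 at day 7, then 0.09 and 0.28 at day 14. Atp5md (DAPIT) and Atp5mpl (6.8PL) encode small membrane subunits. Atp5md read 0.03 and -0.25 in control, 0.78 and 0.27 at day 3, -0.27 and -0.66 at day 7, then -0.03 and 0.32 at day 14. Atp5mpl read -0.06 and -0.17 in control, 0.58 and 0.24 at day 3, -0.25 and -0.46 at day 7, then 0.06 and 0.28 at day 14. In all 3 genes the arrays of days 3 and 7 lay on opposite sides of control. The nearest arrays of day 7 and control, however, both read -0.39 for Atp5o, and read -0.27 and -0.25 for Atp5md. The differences at day 3 were 0.65 (SE 0.21), 0.63 (SE 0.24) and 0.53 (SE 0.17) for Atp5o, Atp5md and Atp5mpl, each with a limma adjusted p of 0.427 or 0.429. The gene of the catalytic beta subunit, Atp5b, went the other way at day 3, by -0.29 (SE 0.20), with -0.17 and -0.19 against 0.00 and 0.21 in control. Atp5a1 (alpha) and Atp5c1 (gamma, the rotating shaft) differed by 0.00 (SE 0.18) and 0.02 (SE 0.15). These are means of probe sets of opposite sign, from -0.35 to 0.42 for Atp5a1 and from -0.27 to 0.32 for Atp5c1. They therefore do not show that the 2 genes were unchanged.

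Complex II was divided. Sdhb, the iron-sulfur subunit, read -0.11 and -0.11 in control, 0.14 and 0.22 at day 3, -0.27 and -0.25 at day 7, then 0.11 and 0.15 at day 14, the closest replicates of the genes described here. Its difference was 0.29 (SE 0.11) at day 3. Sdhd, 1 of the 2 membrane anchors, read 0.23 and 0.02 at day 3 against -0.20 and -0.13 in control, a difference of 0.29 (SE 0.13). Sdha, the flavoprotein that oxidises succinate, ran opposite to both, with 0.04 and 0.30 in control, -0.19 and -0.09 at day 3, 0.27 and 0.16 at day 7, then -0.12 and -0.26 at day 14. Its arrays of days 3 and 14 were below both controls, and it differed by -0.31 (SE 0.14) at day 3. The other anchor, Sdhc, differed by -0.20 (SE 0.20), with overlapping arrays.

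**Figure D2:**
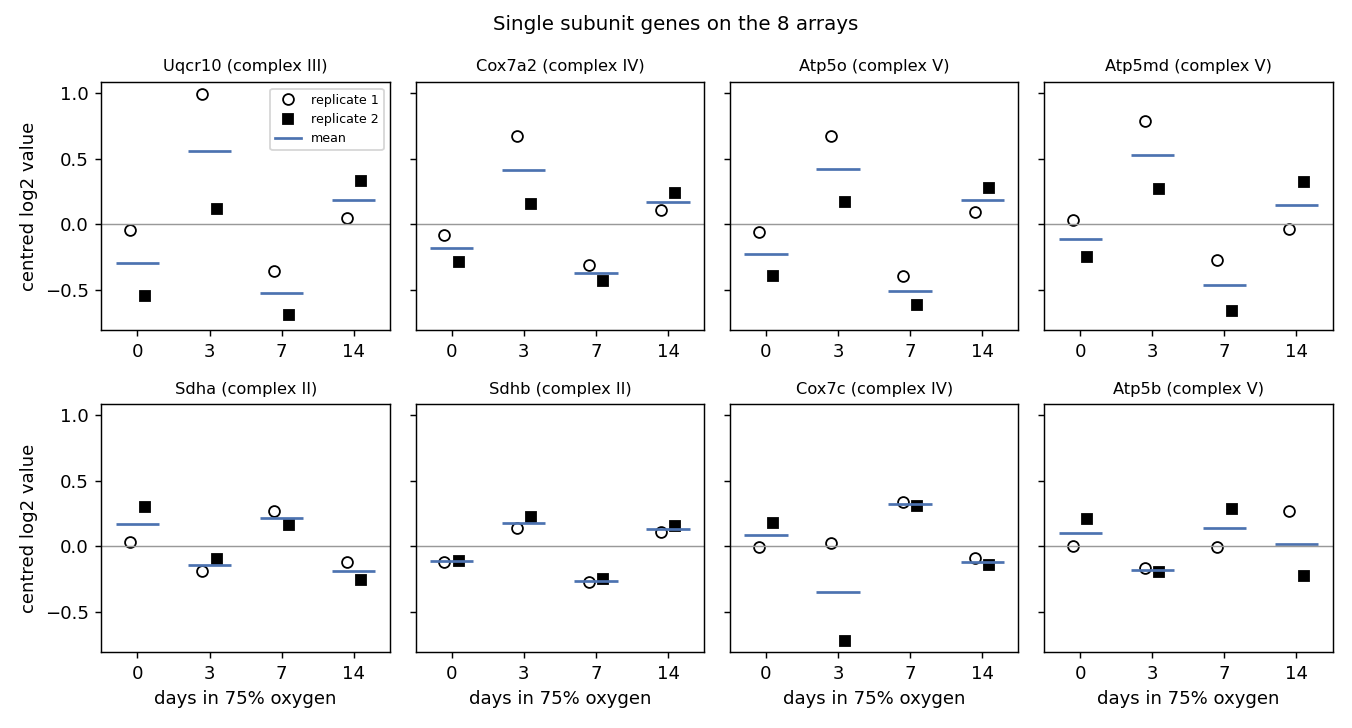
Centred log2 values of 8 subunit genes (panels) by days in 75% oxygen, with open circles for replicate 1, filled squares for replicate 2 and a line at the mean. Uqcr10, Cox7a2, Atp5o and Atp5md are high at day 3 and low at day 7 with wide gaps between replicates (0.99 and 0.12 for Uqcr10 at day 3), Sdhb shows the same course with close replicates, and Sdha, Cox7c and Atp5b are lower at day 3 than in control.

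The promoter windows of the members with the largest difference at day 3 in complexes III, IV and V, of Atp5md, which had the largest difference among genes with the GABPA letters, and of the lowest members of complexes II, IV and V are printed so that the stretches can be compared with these values. Each runs from 250 bases before to 50 bases after the transcription start in RefSeq (GRCm38.p6), 5′ to 3′ on the gene's strand. Capitals mark, on either strand, TGCGCA (the core bound by NRF1), CCGGAAG (GABPA and other ETS factors), AAGATGG (YY1), GGGCGG (Sp1), CCAAT (NF-Y), ACGTG (the core bound by hypoxia-inducible factors) and, as the box that binds TBP, TATAAA. None of these motifs holds another.
Uqcr10, chr11:4704295-4704594, minus strand: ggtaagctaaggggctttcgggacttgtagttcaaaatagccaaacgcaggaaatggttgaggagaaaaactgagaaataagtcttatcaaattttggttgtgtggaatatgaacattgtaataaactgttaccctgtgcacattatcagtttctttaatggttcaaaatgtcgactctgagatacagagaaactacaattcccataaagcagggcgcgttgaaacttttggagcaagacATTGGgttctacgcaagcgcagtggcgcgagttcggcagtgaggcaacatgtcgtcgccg
Cox7a2, chr9:79759804-79760103, minus strand: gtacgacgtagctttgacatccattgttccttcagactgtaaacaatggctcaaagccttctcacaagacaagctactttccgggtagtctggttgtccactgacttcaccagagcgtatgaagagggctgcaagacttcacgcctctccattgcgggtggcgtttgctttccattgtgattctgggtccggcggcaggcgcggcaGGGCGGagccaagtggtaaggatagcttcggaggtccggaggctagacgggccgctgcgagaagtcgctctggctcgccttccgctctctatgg
Atp5o, chr16:91931581-91931880, minus strand: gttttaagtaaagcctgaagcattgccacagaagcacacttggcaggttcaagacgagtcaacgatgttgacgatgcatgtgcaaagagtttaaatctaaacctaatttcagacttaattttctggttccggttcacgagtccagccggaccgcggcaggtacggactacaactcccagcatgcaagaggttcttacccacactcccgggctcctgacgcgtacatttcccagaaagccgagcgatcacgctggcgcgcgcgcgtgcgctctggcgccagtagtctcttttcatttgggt
Atp5md, chr19:47090598-47090897, minus strand: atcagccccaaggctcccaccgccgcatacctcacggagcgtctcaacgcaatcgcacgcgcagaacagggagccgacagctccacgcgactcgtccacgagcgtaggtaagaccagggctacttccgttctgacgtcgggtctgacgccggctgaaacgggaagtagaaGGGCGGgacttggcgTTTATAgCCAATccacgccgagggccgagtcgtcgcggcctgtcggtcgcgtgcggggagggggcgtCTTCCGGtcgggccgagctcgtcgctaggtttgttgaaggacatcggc
Sdha, chr13:74350191-74350490, minus strand: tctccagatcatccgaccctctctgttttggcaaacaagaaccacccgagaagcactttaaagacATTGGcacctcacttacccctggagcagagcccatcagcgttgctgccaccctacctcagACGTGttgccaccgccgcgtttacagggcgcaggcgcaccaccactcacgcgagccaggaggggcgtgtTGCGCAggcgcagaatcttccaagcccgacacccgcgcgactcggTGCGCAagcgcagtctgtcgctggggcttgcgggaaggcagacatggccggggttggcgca
Cox7c, chr13:86046746-86047045, minus strand: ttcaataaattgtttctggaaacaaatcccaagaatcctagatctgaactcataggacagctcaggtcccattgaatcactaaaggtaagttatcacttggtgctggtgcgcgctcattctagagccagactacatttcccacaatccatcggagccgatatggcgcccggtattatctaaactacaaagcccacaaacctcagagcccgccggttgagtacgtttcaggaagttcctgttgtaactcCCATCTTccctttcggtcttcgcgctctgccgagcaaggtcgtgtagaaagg
Atp5b, chr10:128083057-128083356, plus strand: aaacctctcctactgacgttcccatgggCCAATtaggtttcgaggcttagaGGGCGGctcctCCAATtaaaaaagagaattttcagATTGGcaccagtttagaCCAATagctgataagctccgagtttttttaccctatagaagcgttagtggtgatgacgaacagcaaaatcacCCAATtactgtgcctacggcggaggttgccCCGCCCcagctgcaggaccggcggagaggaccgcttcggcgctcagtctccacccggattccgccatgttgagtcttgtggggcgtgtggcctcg
A window was given for 35 of the 47 genes (38 windows, as some genes have more than 1 start). CCGGAAG was found in 13 of the 38 windows (34.2%, against 8.86% of 32851 RefSeq windows and 11.6% of those of protein-coding genes), and TGCGCA in 8 (21.1%, against 7.76% and 9.74%). Against the same 2 backgrounds, AAGATGG was found in 4 (10.5%, against 6.34% and 6.24%), CCAAT in 20 (52.6%, against 37.4% and 38.2%) and ACGTG in 11 (28.9%, against 19.6% and 20.9%). GGGCGG was found in 14 (36.8%, against 35.7% and 46.2%) and TATAAA in 4 (10.5%, against 13.6% and 12.6%). The 13 genes with CCGGAAG were all higher at day 3 than in control (median difference 0.38), as were 17 of the 22 genes without it (median over the 22 of 0.16). The 8 genes with TGCGCA had a median difference of 0.16 at day 3 and the 27 without it one of 0.32. A match is a run of letters and says nothing of binding in these retinas.

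When the genes were grouped by their role in the enzyme, a grouping made after the values were seen, the accessory subunits had the largest median differences. The accessory class also held the stalk of complex V (Atp5o, Atp5pb, Atp5h and Atp5j) and Cox7a2l. The 26 genes of this class had a median difference of 0.40 at day 3 (23 higher), -0.17 at day 7 (23 lower) and 0.24 at day 14 (25 higher). Their array medians were -0.04 and -0.17 in control, 0.56 and 0.15 at day 3, -0.16 and -0.38 at day 7, then 0.06 and 0.23 at day 14. The 14 subunits that carry electrons, bind substrate or turn with the rotor had medians of 0.07, -0.01 and 0.16 at days 3, 7 and 14, and the 7 tissue isoforms had 0.25, -0.08 and 0.14. Among the catalytic and rotor genes, Atp5e (epsilon, at the foot of the rotor) was an exception, with 0.03 and -0.38 in control, 0.14 and 0.42 at day 3, -0.31 and -0.82 at day 7, then -0.03 and 0.55 at day 14. At day 3, probe sets of 1 gene differed in sign for Atp5a1, Atp5c1 and Atp5g2 among the catalytic and rotor genes. The same held for Cox5a and Cox5b among the accessory genes and for Cox6a2 among the tissue isoforms. The difference between these classes was not tested.

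**Figure D3:**
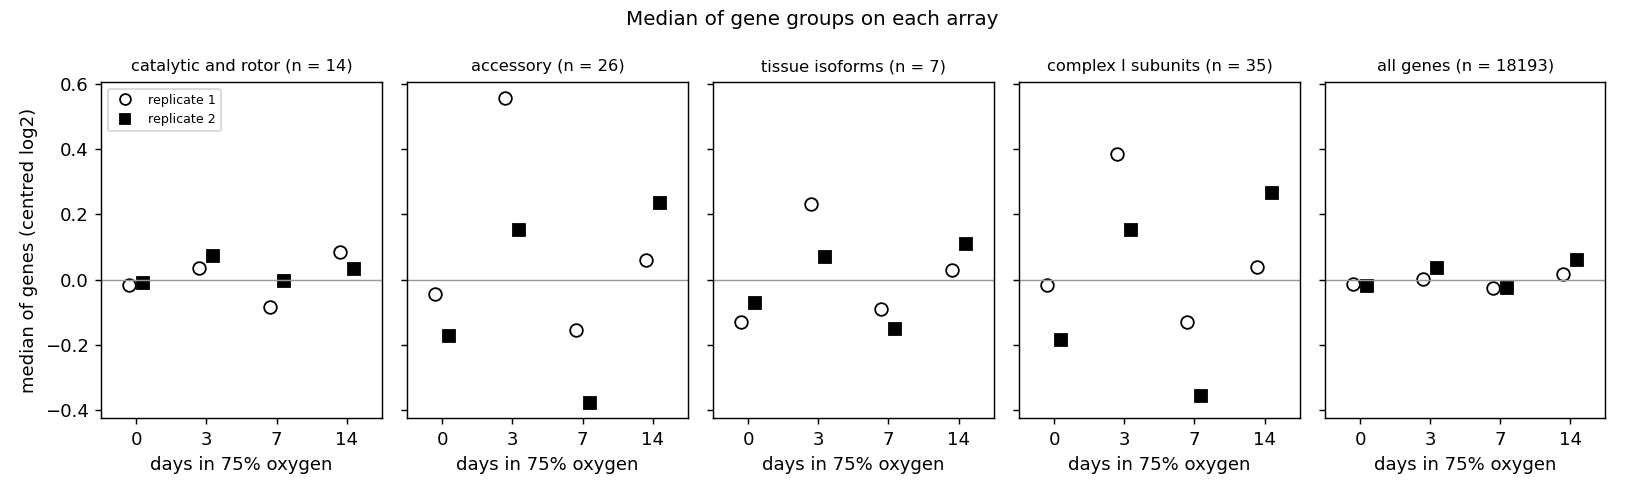
Median centred log2 value of gene groups on each of the 8 arrays by days in 75% oxygen (open circles, replicate 1, filled squares, replicate 2). The accessory subunits and the complex I subunits are highest on day 3 replicate 1 (0.56 and 0.38) and lowest on day 7 replicate 2 (-0.38 and -0.36), while the catalytic and rotor subunits stay between -0.08 and 0.09 and all genes between -0.03 and 0.06.

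At 7 days, 36 of the 47 genes were lower than in control and 11 were higher, with a median difference of -0.08 (-0.01 over all genes, of which 48.1% were higher). No member had an unadjusted p under 0.05 in either direction, beside 0.341% of all genes higher and 0.456% lower. A plain analysis of variance of the 2 groups, run gene by gene on the deposited values, gave 2 before and 0 after adjustment. It is not the study's own analysis of variance, which used MAS5 values and an error model shared across genes. The unadjusted share of all genes was not counted for the plain analysis of variance, so its 2 has no background beside it. Both arrays lay below both controls for 14 members and above both for 2, beside 13.1% and 12.1% of all genes. The lower genes included Cox7a1 at -0.70 (SE 0.44), Atp5e at -0.40 (SE 0.27), Cox4i2 at -0.39 (SE 0.26), Uqcrh (the hinge protein next to cytochrome c1) at -0.36 (SE 0.23), Atp5md at -0.35 (SE 0.24), Uqcr11 at -0.34 (SE 0.23), Atp5o at -0.28 (SE 0.21) and Uqcr10 at -0.23 (SE 0.31). Sdhb differed by -0.15 (SE 0.11), Sdha by 0.04 (SE 0.14), Sdhc by -0.02 (SE 0.20) and Cox8b by 0.34 (SE 0.44). For Atp5e, Cox4i2, Uqcr11 and Uqcr10 the arrays of day 7 and control overlapped. With replicate 1 of day 7 left out, the median difference was -0.13.

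At 14 days, 39 of the 47 genes were higher than in control and 8 were lower, with a median difference of 0.23 (0.08 over all genes, of which 64% were higher). With an unadjusted p under 0.05, 4 members (Cox8c, Sdhd, Cox7a2l and Cox8b) were higher and 1 (Sdha) was lower, beside 4.45% of all genes higher and 3.56% lower. Both arrays were above both controls for 29 members and below both for 2, beside 33.5% and 15.2% of all genes. All 9 genes of complex III were higher, by 0.12 to 0.48, with both arrays above both controls in 8 of them.

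At day 14, Uqcr10 was 0.48 (SE 0.31) higher, Atp5e 0.43 (SE 0.27), Atp5o 0.41 (SE 0.21), Uqcrq 0.26 (SE 0.13) and Uqcr11 0.24 (SE 0.23). Cox7a2l read -0.07 and -0.27 in control, 0.07 and 0.23 at day 3, -0.11 and -0.59 at day 7, then 0.19 and 0.33 at day 14, a difference of 0.43 (SE 0.18) at day 14. In complex II, Sdhd read 0.15 and 0.18 at day 14 against -0.20 and -0.13 in control and was 0.33 (SE 0.13) higher, Sdhb was 0.25 (SE 0.11) higher, and Sdha was lower, by -0.36 (SE 0.14). Atp5a1, the catalytic alpha subunit, read 0.29 and 0.41 at day 14 against 0.03 and 0.01 in control, a difference of 0.34 (SE 0.18), while its partner Atp5b read 0.27 and -0.23 against 0.00 and 0.21. The 3 probe sets of Atp5a1 ranged from -0.08 to 0.83 at day 14, so this gene's value rests on how they are joined.

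**Figure D4:**
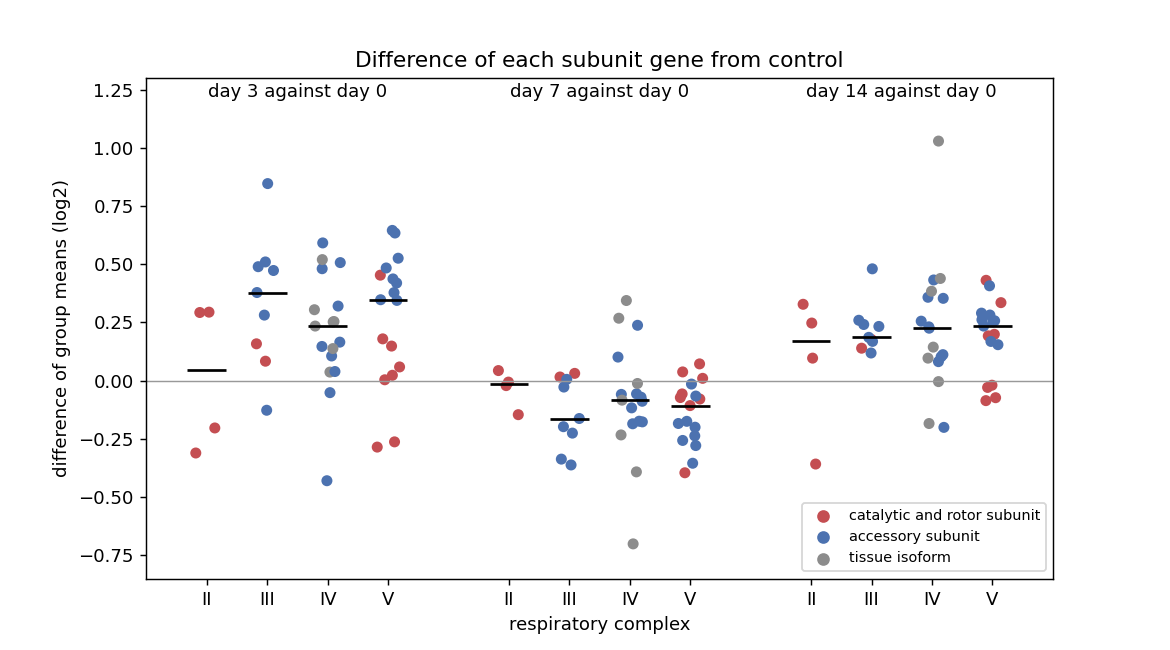
Difference of group means from control (log2) for each of the 47 genes at days 3, 7 and 14, by complex, with points coloured by role in the enzyme and a bar at the median of each complex. At day 3 the medians are 0.04, 0.38, 0.23 and 0.35 for complexes II to V, at day 7, 14 of the 17 genes of complex V lie below 0, and at day 14 Cox8b stands alone at 1.03.

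The exposure days were also compared with each other. At day 7 against day 3, 38 members were lower and 9 higher, with a median of -0.30 (-0.06 over all genes, of which 40.3% were higher). With an unadjusted p under 0.05, 21 members were lower and 2 higher (Sdha and Cox7c), beside 8.76% of all genes lower and 5.65% higher. Both arrays of day 7 lay below both of day 3 for 27 members and above both for 3, beside 28% and 15.6% of all genes. The differences passed 1 on the log2 scale for Cox7a1 (-1.22, SE 0.44) and Uqcr10 (-1.07, SE 0.31), and Atp5md (-0.99, SE 0.24) and Atp5o (-0.92, SE 0.21) followed. The lowest limma adjusted p of a member was 0.285.

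At day 14 against day 7, 42 members were higher and 5 lower, with a median of 0.32 (0.08 over all genes, of which 64.3% were higher). With an unadjusted p under 0.05, 13 members were higher and 1 (Sdha) lower, beside 6.83% and 4.62% of all genes. Both arrays of day 14 were above both of day 7 for 32 members and below both for 3, beside 34.5% and 14.4%. Here Atp5e differed by 0.83 (SE 0.27), Uqcr10 by 0.71 (SE 0.31), Atp5o by 0.69 (SE 0.21) and Cox7a2l by 0.61 (SE 0.18), with a lowest limma adjusted p of 0.410. At day 14 against day 3 no member had an unadjusted p under 0.05, beside 2.01% of all genes higher and 1.08% lower, and the analysis of variance gave 0 as well. The median was -0.04 (0.02 over all genes, of which 53.4% were higher) with 19 members higher and 28 lower, and both arrays lay above both for 2 members and below both for 2, beside 14.4% and 11.7%. All comparisons against control share its 2 arrays, and those between days share the arrays of each day.

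These counts depended on single arrays, and the arrays labelled replicate 1 and 2 of a day are called its first and second array here. The second arrays of days 3 and 14 stood apart, with a difference between the 3′ and 5′ control probe sets of Gapdh of 1.19 and 1.43 (between -0.32 and 0.12 on the other 6) and of beta-actin of 1.0 and 1.24 (between -0.94 and 0.44). On these 2 arrays the median of 17 gliosis genes was 1.35 and 1.23 (between -0.35 and 0.15 elsewhere), that of 17 microglia and macrophage genes was 1.08 and 1.09 (between -0.19 and 0.17), and that of 20 rod genes was -0.33 and -0.38. The rod median was also low, at -0.29, on the first day 3 array, and it lay between 0.02 and 0.10 on the remaining 5. The study's own quality measures differ from this. The 2 highest Gapdh 5′/3′ ratios were on the 2 arrays of day 14, with no raised ratio at day 3. These are ratios headed 5′ over 3′, whereas the values above are log2 differences of 3′ minus 5′. The study's array results also gave Gfap as unchanged at day 3 and raised at days 7 and 14. The days used here rest on the labels alone, and whether they match the study's days was not tested. In whole retina, fewer cells of a type and less RNA per cell cannot be told apart. Of 17 lens genes, all were higher at day 7 than in control, with medians of 1.89 and 3.48 on the day 7 arrays against -1.57 and 1.75 in control, and the second day 7 array was also the one on which most members were lowest. Of 11 cornea genes, all were lower at days 3 and 7 than in control, with medians of -0.77 and -0.71 at day 3 and -0.05 and -0.41 at day 7, against 0.31 and 1.87 in control. The part of these shifts in the subunit values was not tested. With the second arrays of days 3 and 14 left out, 36 of the 47 members were higher at day 3 (median 0.28), beside 54.2% of all genes (median 0.03). At day 14, 37 members were higher (median 0.15), beside 60.8% of all genes (median 0.05). The median at day 7 against day 3 was then -0.40 (-0.02 over all genes).

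Leaving out 1 array at a time changed the adjusted calls in 1 case. Each such fit leaves 1 array in a group, and the unadjusted share of all genes was not counted for it. A change in the unadjusted counts below can therefore not be told from a change over all genes. When the second day 3 array was left out, so that day 3 rested on 1 array assumed to vary like the other days, 7 members passed adjusted p at day 7 against day 3 (Uqcr10, Uqcrb, Uqcrc2, Cox7a2, Atp5o, Atp5l and Atp5mpl), as did 521 of all genes (2.86%). The unadjusted count of that comparison, 23, became 13 when the first day 3 array was left out and 6 for the second day 7 array. At day 3 against control, the count of 8 became 0 on leaving out the second control array, 3 for the first day 3 array, where the median became 0.18, and 17 for the second. At day 14 against control, the count of 5 became 1 on leaving out the first control array and 3 for the second, 2 for either day 7 array or the first of day 14, 1 for the second of day 14, where the median became 0.15, and 7 for either day 3 array. At day 14 against day 7, the count of 14 became 2 on leaving out the second day 7 array, 1 for the second of day 14 and 22 for either of day 3. At day 14 against day 3, the count of 0 became 15 on leaving out the second array of day 3.

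Several subunits of complex IV exist in a common form and in a form made mainly in heart and skeletal muscle, lung or testis. Of the forms known from muscle, Cox7a1 read 0.07 and -0.07 in control, 0.58 and 0.46 at day 3, -0.09 and -1.31 at day 7, then -0.37 and 0.66 at day 14, the widest range of the 47 genes (1.97). Its difference at day 3 was 0.52 (SE 0.44), and its mean at day 7 was set by replicate 2. Cox8b had the only difference from control above 1. It read -0.86 and -0.22 in control, 0.23 and -0.84 at day 3, -0.60 and 0.22 at day 7, then 0.22 and 0.76 at day 14, a difference of 1.03 at day 14 with an SE of 0.44 (limma adjusted p = 0.621). Only the day 14 arrays cleared both controls, and the 2 control arrays lay far apart. Cox6a2, the third muscle form, stayed between -0.15 and 0.16 on all 8 arrays.

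A list of 18 striated muscle genes had array medians of -0.17 and 0.11 in control, 0.15 and -0.11 at day 3, -0.11 and -0.09 at day 7, then 0.36 and 0.05 at day 14. It was highest on day 14 replicate 1, whereas Cox8b and Cox7a1 were highest on day 14 replicate 2, and their link to it was not tested. The common forms had narrower ranges over the 8 arrays than Cox7a1 and Cox8b. Cox7a2 had a range of 1.10 and Cox6b1 one of 0.87. Cox8a stayed between -0.17 and 0.12, Cox4i1 between -0.13 and 0.10, and Cox6a1 between -0.15 and 0.32.

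Cox4i2, the form of subunit 4 found mainly in lung and known from cultured cells to be induced at low oxygen, read 0.57 and -0.24 in control, 0.52 and 0.32 at day 3, -0.11 and -0.34 at day 7, then -0.15 and 0.11 at day 14. Its control arrays were farther apart than the 2 arrays of any exposure day, and it differed by 0.25 (SE 0.26) at day 3. Of the forms known from testis, Cox6b2 read -0.17 and 0.02 in control, 0.50 and -0.04 at day 3, -0.02 and -0.60 at day 7, then 0.27 and 0.35 at day 14, and its common partner Cox6b1 read -0.05 and -0.24, then 0.44 and 0.22, -0.21 and -0.43, and 0.05 and 0.37 on the same days. Cox8c was above both controls at every exposure day and 0.44 (SE 0.17) higher at day 14, with 0.43 and 0.00 against -0.34 and -0.10. Cox7b2 stayed between -0.03 and 0.12, the narrowest range of all members (0.15). Its partner Cox7b is not analysed here.

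**Figure D5:**
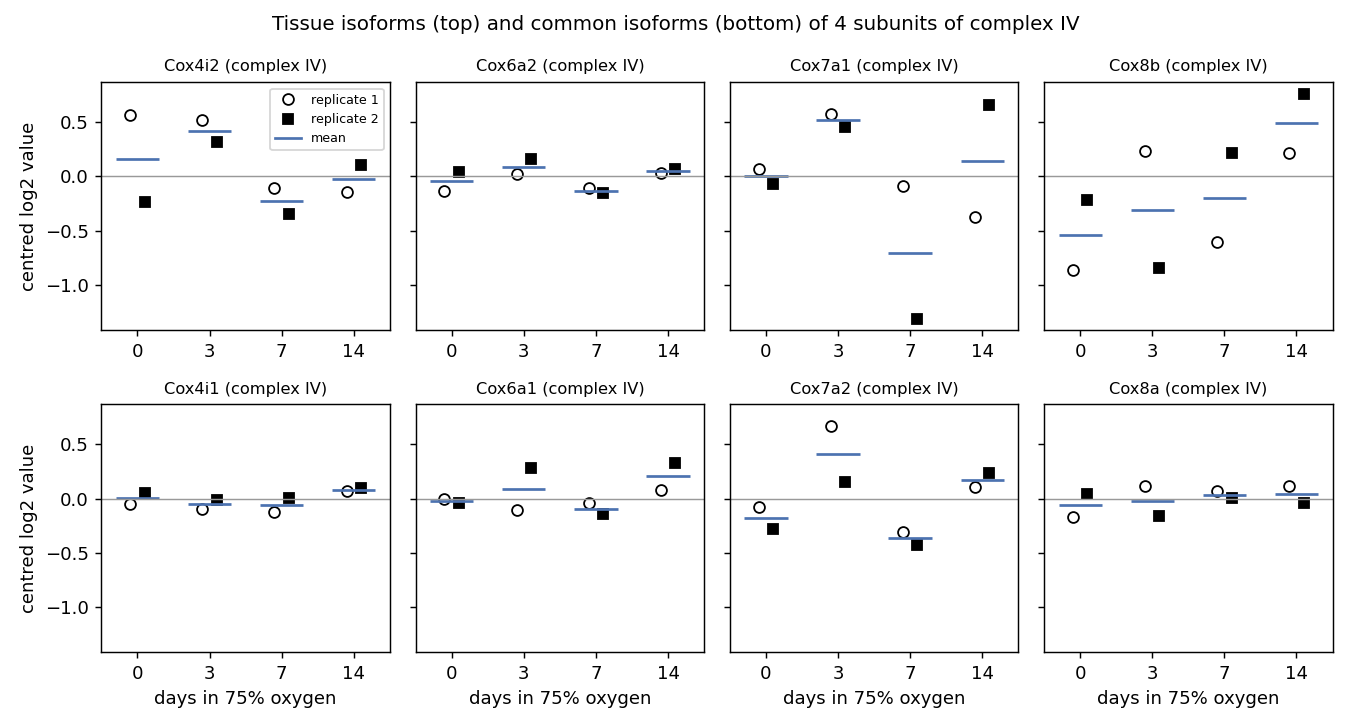
Centred log2 values of tissue isoforms (top) and common isoforms (bottom) of 4 subunits of complex IV by days in 75% oxygen, with open circles for replicate 1, filled squares for replicate 2 and a line at the mean. Cox7a1 and Cox8b spread widely between replicates (-0.09 and -1.31 for Cox7a1 at day 7), while Cox6a2, Cox4i1 and Cox8a stay close to 0.

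The ring of complex V that turns as protons pass is built from 1 protein made by 3 genes, which differ only in the part that leads the protein into the mitochondrion. They did not share 1 course. Atp5g1 read -0.08 and -0.02 in control, -0.02 and 0.23 at day 3, -0.13 and -0.17 at day 7, then -0.01 and 0.31 at day 14. Atp5g2 read 0.10 and -0.04, then 0.32 and 0.11, 0.12 and 0.09, and 0.03 and -0.02 on the same days. Atp5g3 read -0.01 and 0.14, then -0.51 and 0.10, -0.01 and 0.16, and -0.04 and 0.01. The differences at day 3 were 0.15 (SE 0.16), 0.18 (SE 0.13) and -0.26 (SE 0.20) for Atp5g1, Atp5g2 and Atp5g3, and the 3 genes' values overlapped with their own controls at day 3 in Atp5g1 and Atp5g3.

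The other genes of oxidative metabolism were counted from lists that hold the pathway's members whatever their values, and 0 of them passed adjusted p in any comparison. The 35 measured subunits of complex I (of 38 listed), which feed electrons from NADH into the same chain, showed the same order of days as the members, with median differences of 0.41 at day 3 (32 higher), -0.14 at day 7 (34 lower) and 0.27 at day 14 (32 higher). Ndufv1, which binds NADH, was 0.34 (SE 0.14) higher and Ndufa9 0.44 (SE 0.22) higher at day 14. The 33 assembly factors of complexes II to V differed by medians of 0.17, -0.09 and 0.15 at days 3, 7 and 14. Among them Sco2, which delivers copper to complex IV, was 0.57 (SE 0.22) higher at day 14 and 0.92 higher at day 3, and Coa4 was 0.45 (SE 0.15) higher at day 14. Cytochrome c and coenzyme Q synthesis (15 genes) had medians of 0.14, -0.09 and 0.10, with Coq7 at 0.40 (SE 0.12) and Coq9 at 0.33 (SE 0.17) at day 14.

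The tricarboxylic acid cycle (18 genes) had medians of 0.01, -0.01 and 0.14, and Suclg1 and Suclg2, subunits of succinyl-CoA synthetase, were 0.35 (SE 0.13) and 0.51 (SE 0.19) higher at day 14. Regulators of mitochondrial biogenesis (23 genes) had medians of -0.08, -0.04 and -0.07. Ppargc1a, the coactivator that drives many of the subunit genes in other tissues, was lower at day 14, by -0.56 (SE 0.18), with -0.14 and -0.55 against 0.30 and 0.13 in control, and Ppara was lower by -0.67 (SE 0.19). ATP and phosphate carriers (13 genes) had medians close to 0 at each day, between -0.09 and -0.00, with Atpif1, the inhibitor protein of complex V, at 0.22 (SE 0.14) and the carrier Slc25a31 at 0.21 (SE 0.13) at day 14. Glycolysis (14 genes) had medians of -0.48 at day 3 (13 lower), -0.05 at day 7 and -0.36 at day 14 (12 lower). Pfkp, an isoform of phosphofructokinase, was lower by -1.58 (SE 0.34) and Pkm, pyruvate kinase, by -0.48 (SE 0.18) at day 14. Outside metabolism, 46 genes of cytosolic ribosomal proteins, a list added after the data were seen, had medians of 0.26, -0.16 and 0.20, so that the course of the subunit genes was not theirs alone.

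Of the 47 members, 18 had a single probe set and 29 had several. Among those with several, the probe sets of a gene differed in sign for 6 genes at day 3, 9 at day 7 and 6 at day 14, and the median spread within a gene was 0.27, 0.16 and 0.19. Cox5b had 6 probe sets, from -0.26 to 0.41 at day 3, and Atp5g2 had 3, from -0.32 to 0.60. The names of 27 of the 92 probe sets end in x_at or s_at, which marks probes that can bind more than 1 transcript. Pseudogenes are annotated for Uqcrh (2), Cox5b (1), Cox7c (1), Atp5c1 (1), Atp5pb (1), Atp5k (4) and Atp5l (2), and the values of these genes may hold signal from such copies.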

How the data were processed

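Biotin-labelled RNA was hybridised to 8 Affymetrix arrays, 2 at each of 4 times, and each array was grouped by the day in its label. The authors deposited log2 values made, per the labels, with RMA (version and settings not given in the sources used here), which removes background, quantile-normalises the arrays and joins the probes of each set. The deposited log2 values are also centred on each probe set's median over the 8 arrays (within 5e-07), a step not described. The study's methods describe MAS5 values, which were not used here. With no level, a filter on dim probe sets could not be applied. RMA may narrow small differences, and the number of arrays limits the precision.

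Of 45101 probe sets, 64 controls were set aside. Of the others, 34945 had 1 gene symbol, 932 several and 9160 none. Probe sets with 1 symbol were averaged per gene (18193 genes). All 47 members were matched by gene ID to RefSeq (GRCm38.p6). All 8 arrays entered a model of 4 group means in limma 3.58.1 (R 4.3.3), with moderated two-sided tests from eBayes (4 residual and 3.12 prior degrees of freedom). Benjamini-Hochberg adjustment ran over all genes, with a threshold of 0.05. The fit was tested on simulated data. Counts and figures were made in Python 3.11.15 (numpy 2.4.6, pandas 2.3.3, matplotlib 3.10.9).

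The genes named are, since fewer than 8 members passed, the 3 of each complex with the largest absolute difference from control at each day, the isoform pairs of complex IV, the 3 genes of the complex V ring, and from each other pathway list the 2 with the smallest p at day 14. The other members named were chosen after their values were seen. The members and lists were chosen with earlier results of these data known. As alternatives, quantile normalization was repeated, array medians were subtracted, and a replicate block, robust eBayes and fits of only the groups compared were tried. Other probe sets, a filter on SD, means on the linear scale, a plain analysis of variance gene by gene, and leaving out 1 or 2 arrays were also tried.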

Additional observations from a re-analysis of the deposited data

Results flagged for a closer look

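Several values lay on opposite sides of control at 2 exposure days, with both arrays of one day above both control arrays and both arrays of the other below them. The difference between the days' effects is the difference between the days, since the control arrays are shared. For the median of the members on each array it was -0.29 at day 7 against day 3 and 0.29 at day 14 against day 7. This difference was not tested. The members' median on day 7 replicate 1 (-0.115) was only just below that on control replicate 2 (-0.101).

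The single genes were tested between days by limma, and 0 passed adjusted p. In complex II, Sdhb differed by -0.44 at day 7 against day 3 and by 0.39 at day 14 against day 7. In complex III, Uqcrc2 differed by -0.65 and 0.33 in these 2 comparisons, and Uqcrh by 0.55 at day 14 against day 7. In complex IV, Cox7a2 differed by -0.78 and 0.54, and Cox7a1 by -1.22 at day 7 against day 3. In complex V, Atp5o differed by -0.92 and 0.69, Atp5mpl by -0.76 and 0.52, Atp5md by -0.99 at day 7 against day 3, and Atp5a1 by 0.39 at day 14 against day 7. For Atp5o, replicate 1 of day 7 and replicate 2 of the control both read -0.39. The same 2 arrays were also close for Atp5md (-0.27 and -0.25), Cox7a1 (-0.09 and -0.07) and Cox7a2 (-0.30 and -0.28). For these flags, groups of 2 arrays were not examined for single arrays far from the rest, and the arrays that stood apart are described above.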

How the results depend on the processing

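The count of members past adjusted p was 0 in every comparison under every alternative run, apart from 0 to 7 at day 7 against day 3 when single arrays were left out. With 2 arrays a day, small differences cannot be told from the spread between arrays, and the dimness of a probe set is unknown. A value is taken as moved where it changed by more than 0.06355, the SD of the members' array medians within a day. The cause of the changes below was not tested, beyond the fewer arrays or genes that a setting holds.

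With the probe set of largest SD for each gene, the members' median was 0.38 at day 3 against control, -0.54 at day 7 against day 3 and 0.41 at day 14 against day 7. With genes below the median SD left out (32 members remained), it was 0.38 and -0.18 at days 3 and 7 against control, -0.61 at day 7 against day 3, -0.13 at day 14 against day 3 and 0.42 at day 14 against day 7. Without day 3 replicate 2 and day 14 replicate 2 it was 0.15 at day 14 against control, -0.40 at day 7 against day 3, -0.12 at day 14 against day 3 and 0.25 at day 14 against day 7, and the difference of Uqcr11 at day 14 was -0.0026. Without day 7 replicate 2 and day 3 replicate 1 the median was 0.18 at day 3, and Cox8b was -0.066 at day 7.

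With each array left out in turn, the members' median lay between 0.18 and 0.28 at day 3, -0.13 and -0.06 at day 7, or 0.15 and 0.28 at day 14, all against control. It lay between -0.40 and -0.26 at day 7 against day 3, -0.10 and 0.01 at day 14 against day 3, and 0.25 and 0.41 at day 14 against day 7. At day 7 the difference from control ranged from -0.090 to 0.18 for Sdha, -0.24 to 0.20 for Sdhc, -0.47 to 0.022 for Uqcr10, -0.80 to 0.012 for Cox4i2 and -0.066 to 0.75 for Cox8b, and at day 14 that of Uqcr11 ranged from -0.0026 to 0.48.

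Deviations of arrays with the same replicate number correlated between -0.30 and 0.46 over the 6 pairs of days, so the numbers were not taken to pair the arrays. With the replicate number as a block, 0 members passed adjusted p in each comparison, and the unadjusted counts were 10, 0 and 0 at days 3, 7 and 14 against control (8, 0 and 5 without the block). They were 22, 0 and 14 at day 7 against day 3, day 14 against day 3 and day 14 against day 7 (23, 0 and 14 without it). The plain analysis of variance gave unadjusted counts of 3, 2, 3, 2, 0 and 9 in the same order and 0 after adjustment. For it and for the block, the unadjusted share of all genes was not counted.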
